A study of Homo sapiens with 6 samples.

Results

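The S100 genes described here are S100A2, S100A4, S100A6, S100A8, S100A9, S100A10, S100A11, S100A14, S100A16 and S100P, taken by symbol from the count tables of 26484 genes. All 10 were listed in every library, and all 10 passed the filter on low counts that left 11517 genes for testing. The cells were MCF10CA1a, a malignant line of the MCF10A human breast epithelial lineage. They were grown on Matrigel-coated hydrogel dishes (0.14 mg/ml, growth factor-reduced) of 500 Pa (soft) or 8000 Pa (stiff), and RNA was taken on day 5. Both groups carried the same coating and medium and no treatment besides stiffness. The labels list total RNA, tag it as cytosolic and give 3 biological replicates per stiffness, numbered 1 to 3. No separate culture day is given for a number, so p-values rest on the spread between these 6 libraries of 1 line. In the edgeR fit that takes the replicate number as a block, that spread is a trend shared by all genes. It is not the spread of the single gene.

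S100 proteins are small calcium-binding proteins with a pair of EF-hand motifs, and most of them act as dimers. Calcium opens a hydrophobic surface through which the dimer binds a target such as an annexin, a myosin or an ion channel, and some members are also released and bind receptors on other cells. Epithelia express many of them, and S100A8 and S100A9, the subunits of calprotectin, are known for their abundance in neutrophils and in stressed or inflamed epithelium. In bulk RNA, fewer cells expressing a gene and less RNA per cell cannot be told apart.

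Of the 10 genes, 9 lie on chromosome 1 and S100P lies on chromosome 4 (GENCODE 29, GRCh38). S100A10 (151982915 to 151994390) and S100A11 (152032506 to 152047907) sit apart from the other 7 on chromosome 1, which run from S100A9 (153357854 to 153361027, plus strand) and S100A8 (153390032 to 153391188, minus strand) to S100A14 (153614255 to 153616986). S100P spans 6693069 to 6697170. The upstream sequence of S100A9 is shown because S100A9 was the 1 member that passed for stiffness in the fit with the replicate block. It did not pass in the main fit on stiffness alone. Short stretches of S100A8, S100A4 and S100P were picked for their match to the TATA box. Only 4 members, S100A9 and these, had that match in the windows searched. All come from RefSeq on GRCh38.p14, 5′ to 3′ on the gene's strand, and capitals mark the matches named next.
S100A9, chr1:153357604-153357853, plus strand: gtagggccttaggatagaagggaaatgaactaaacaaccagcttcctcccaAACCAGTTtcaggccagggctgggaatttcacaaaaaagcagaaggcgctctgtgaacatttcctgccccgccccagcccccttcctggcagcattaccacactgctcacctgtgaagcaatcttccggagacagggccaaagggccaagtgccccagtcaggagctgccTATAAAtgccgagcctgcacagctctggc
S100A8, chr1:153391085-153391114, minus strand: aagcctaaccgcTATAAAaaggagctgcct
S100A4, chr1:153545820-153545849, minus strand: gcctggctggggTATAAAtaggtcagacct
S100P, chr4:6693838-6693867, plus strand: atgaggctgcctTATAAAgcaccaagaggc

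The TATA box TATAAA begins 29 bases before the start of S100A9 and 29 before 1 of the 3 annotated starts of S100A8, where the same match also falls in the window of another start. It begins 31 bases before the RefSeq start of S100A4 (153545806) and 28 before that of S100P (6693878). These starts, and the start of S100A8 at 153391073, lie inside the GENCODE 29 gene spans, which include transcripts that begin further upstream, so the printed stretches of S100A8, S100A4 and S100P fall within the spans. Searched on both strands of the 250 bases upstream, it was in 5 of the 14 windows of the members, which have 1 to 3 starts each, and in 10.7% of all 35114 windows. The GRHL motif AACNGGTT, whose match in S100A9 begins 199 bases before the start, was in 1 of the 14 windows and in 1.49% of all windows. This motif was added to the search after GRHL3 was seen to pass in the fit with the block. The AP-1 motif TGANTCA matched S100A2 (6.57% of all windows), the C/EBP motif TTGCNNAA matched S100A11 (9.05%), the TEAD motif GGAATG matched S100A16 (11.9%) and the NF-kB motif matched S100A14 (9.96%). The STAT motif TTCNNNGAA (6.57% of all windows) and the CArG box (1.16%) had 0 matches among the 14. No 2 matches in a window overlapped.

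Together the 10 genes took 2.35% ± 0.211 of all counts at 500 Pa and 2.01% ± 0.272 at 8000 Pa (SD, n = 3 each), with ranges of 2.13% to 2.55% and 1.71% to 2.22% that overlapped. Levels of different genes were compared as TMM-scaled CPM (counts relative to the scaled library total) per kb of merged exons. S100A6 (calcyclin) stood first at 9111 ± 2416 CPM per kb (SD over 6 libraries), followed by S100A2 at 3013 ± 789. S100A11 had 2320.5 ± 614 CPM per kb, and S100P had 1809.9 ± 739. S100A4, S100A16 and S100A10 lay close together at 1026 ± 302, 958 ± 341 and 895 ± 107 CPM per kb, and S100A14 followed at 493 ± 75.4. S100A9 was lower at 171 ± 101 and S100A8 lowest at 3.28 ± 2.35 CPM per kb.

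Each gene from S100A6 to S100P exceeded the next in all 6 libraries. S100A4 exceeded S100A16 in 4 of 6 libraries and S100A16 exceeded S100A10 in 3 of 6, so those 3 do not differ beyond their spread. The ranges over libraries did not overlap between S100A6 and S100A2, nor at the steps from S100A10 down to S100A8. Within the members' own counts S100A6 held 35.5% to 43.1% and S100A2 held 18.0% to 25.6% in single libraries. Depth was therefore high for most members, with 40435 counts or more over the 6 libraries for each gene except S100A9 (5989) and S100A8 (204).

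**Figure D1:**
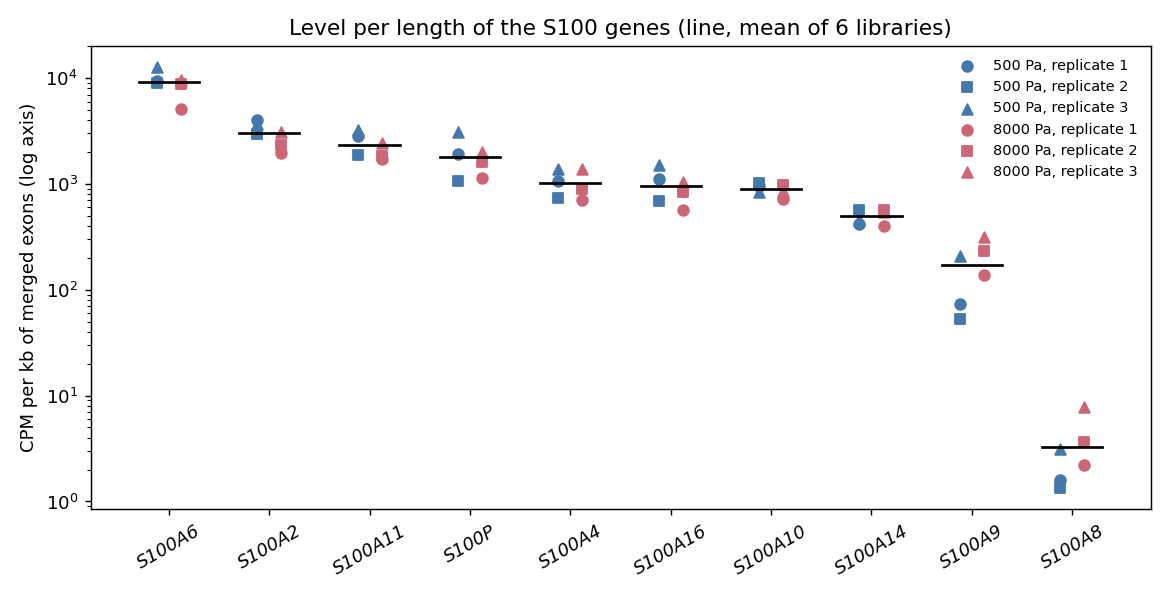
Level of each S100 gene in TMM-scaled CPM per kb of merged exons, on a log axis, with 1 point per library and the mean of 6 libraries as a line. The means run from 9111 for S100A6 down to 3.28 for S100A8, and S100A4, S100A16 and S100A10 share 1 level within their spread.

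The main comparison asked which of these genes differ between soft and stiff gels. Calprotectin subunits were the only members with more RNA on stiff gels in every same-numbered pair. S100A9 was at 42.6, 30.7 and 119.9 CPM in 500 Pa replicates 1, 2 and 3 and at 80.3, 135 and 182 CPM in the 8000 Pa replicates. All 3 pairs were higher on the stiff gel, and the groups overlapped, because 500 Pa replicate 3 lay above 8000 Pa replicate 1. In the edgeR fit on stiffness alone it differed by 1.04 on the log2 scale (SE 0.46) with an adjusted p of 1.00. That fit passed 0 of 11517 genes (0% of those tested), against 7 (0.0608%) by DESeq2 and 0 by limma-voom, and 0 of the 10 members passed in any of the 3. An unadjusted p under 0.05 in edgeR was reached by 282 genes (2.45%) and by 1 member, S100A9.

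With the replicate number as a block, S100A9 rose 2.30-fold on stiff gels, or 1.20 on the log2 scale (SE 0.24, edgeR adjusted p = 0.000365). It was the 1 member of 10 to pass, and 0.53% of all tested genes passed in that fit, 0.26% as higher and 0.269% as lower. The call also held with the block in DESeq2 (adjusted p = 0.0125), where 0.365% of genes passed, and in limma-voom (adjusted p = 0.000173), where 0.773% did. An unadjusted p under 0.05 in the blocked edgeR fit was reached by 3 members, against 10.6% of all genes. The size of the S100A9 difference depended on the pair, since the log2 difference was 0.91 in pair 1, 2.13 in pair 2 and 0.60 in pair 3. The blocked edgeR fit took its spread from a trend shared by all genes. Its SE of 0.24 and its p therefore do not measure the spread of S100A9 between these pairs. Blocked DESeq2 and limma-voom (SE 0.29 and 0.23) also draw on other genes for the spread. Their p-values are therefore not free of this limit. Without replicate 2 the blocked log2 fold change was 0.76 and the gene missed the threshold (edgeR adjusted p = 0.196). Without replicate 3 it was 1.57 with an edgeR adjusted p of 0.0530, and without replicate 1 it was 1.37 and passed (adjusted p = 9.70e-07 by edgeR). The fit without replicate 1 had an SE of 0.22, while the pairs it kept were at 2.13 and 0.60. Its p is therefore no measure of how far those pairs lie apart.

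S100A8, the partner subunit, was at 1.62, 1.34 and 3.14 CPM in the 500 Pa libraries and at 2.24, 3.70 and 7.78 CPM in the 8000 Pa libraries. The pairs were again all higher on stiff gels and the groups overlapped. Its fold change was close to that of S100A9 at 1.06 on the log2 scale (SE 0.47) with the block, but its edgeR adjusted p was 0.372, above the threshold. It rested on 12 to 35 counts in 5 libraries and 78 in 8000 Pa replicate 3, and without that library the unblocked log2 fold change was 0.57 in place of 1.19. The counts of S100A9 were 22.9 to 38.1 times those of S100A8 in single libraries. S100A8 made up 3.66% of the counts of both subunits in 500 Pa replicate 1 (95% exact Clopper-Pearson interval 2.47 to 5.22), 4.18% in replicate 2 (2.18 to 7.19) and 2.56% in replicate 3 (1.61 to 3.84). At 8000 Pa it made up 2.71% (1.81 to 3.89), 2.66% (1.86 to 3.69) and 4.09% (3.25 to 5.08) in replicates 1, 2 and 3. These intervals overlap between the stiffness groups and cover counting error only.

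**Figure D2:**
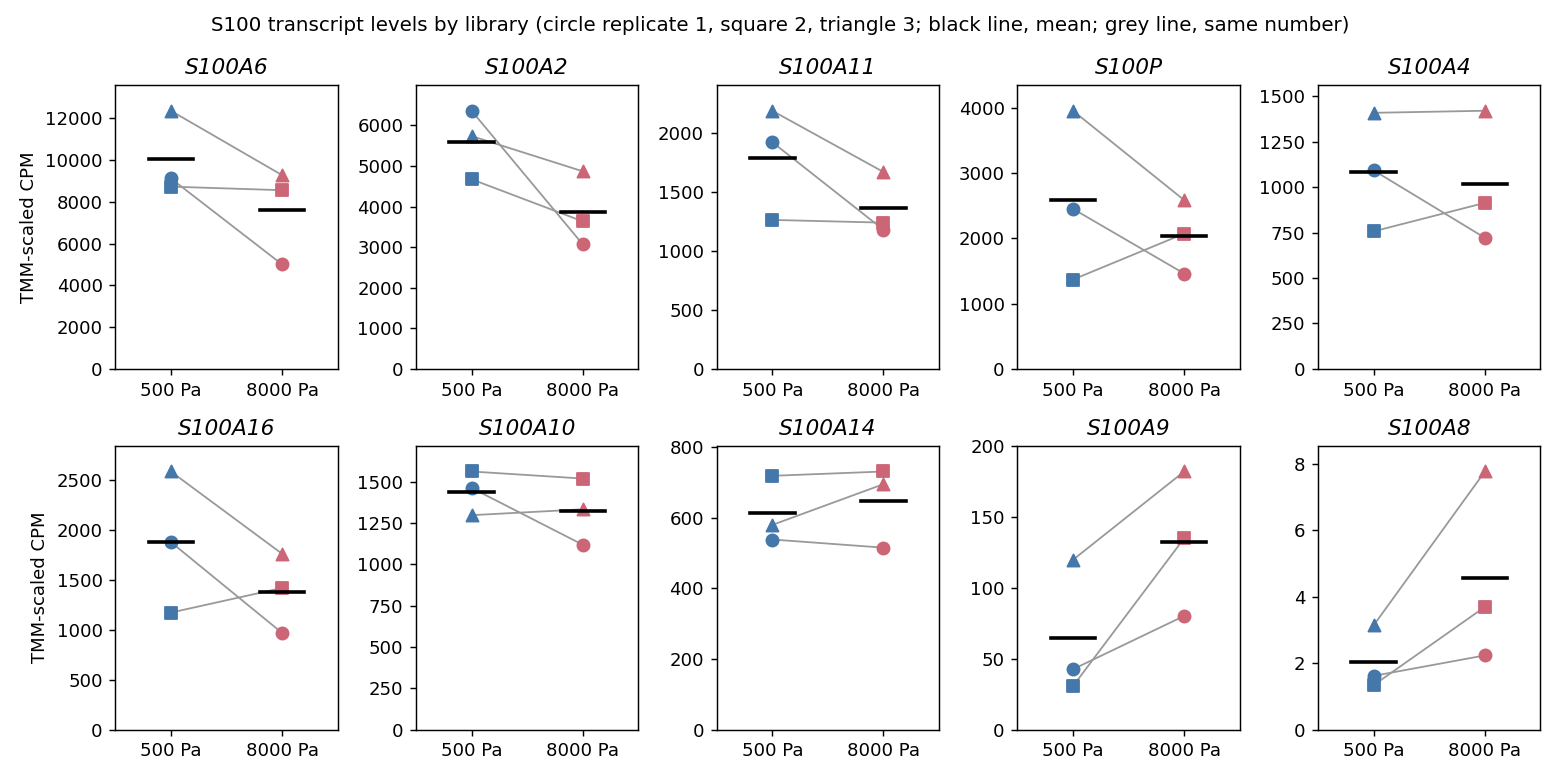
TMM-scaled CPM of each S100 gene in the 6 libraries, 500 Pa on the left and 8000 Pa on the right of each panel, with grey lines joining libraries of the same replicate number and black lines for group means. S100A9 and S100A8 slope up in all 3 pairs, S100A2, S100A6 and S100A11 slope down in all 3, and the groups overlap in every panel.

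Among the abundant members, S100A2, a member expressed in basal epithelial cells, had the lowest fold change. It was at 6358, 4671 and 5735 CPM at 500 Pa and at 3067, 3634 and 4867 CPM at 8000 Pa. Every pair was lower on stiff gels, while 8000 Pa replicate 3 lay above 500 Pa replicate 2. With the block the difference was -0.55 on the log2 scale (SE 0.27), and the edgeR adjusted p of 0.432 did not pass.

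S100A6, which binds the calcyclin-binding protein CACYBP, was at 9126, 8733 and 12368 CPM at 500 Pa and at 5007, 8561 and 9284 CPM at 8000 Pa. The pair differences were -0.87, -0.03 and -0.41 on the log2 scale, so pair 2 hardly moved and pair 1 held the widest gap. S100A11, a partner of annexin A1, was at 1923, 1264 and 2189.6 CPM at 500 Pa and at 1180.2, 1241 and 1670.2 CPM at 8000 Pa. Its pair differences were -0.70, -0.03 and -0.39. Neither passed, with blocked log2 fold changes of -0.44 (SE 0.27) and -0.37 (SE 0.25).

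S100A16 and S100P did not keep 1 direction. S100A16, a broadly expressed member, had 1877, 1171 and 2583 CPM at 500 Pa and 968, 1418 and 1760.3 CPM at 8000 Pa. S100P, which binds the membrane linker ezrin, had 2453, 1369 and 3957 CPM at 500 Pa and 1461, 2073 and 2586 CPM at 8000 Pa. Both were lower on stiff gels in pairs 1 and 3 and higher in pair 2, where the log2 difference was 0.28 for S100A16 and 0.60 for S100P. The blocked log2 fold changes were -0.41 (SE 0.25) and -0.26 (SE 0.26), and that of S100P was 0.01 without replicate 1.

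The 3 remaining genes had fold changes within 1 SE of 0. S100A10, the light chain that binds annexin A2 and lacks calcium binding, had 1462, 1561 and 1297 CPM at 500 Pa and 1118, 1519 and 1333 CPM at 8000 Pa (blocked log2 fold change -0.13, SE 0.25). S100A4, which binds the non-muscle myosin heavy chain MYH9, had 1092, 757 and 1408 CPM against 721, 913 and 1419.8 CPM (-0.10, SE 0.25). S100A14, an epithelial member, had 538, 718 and 579 CPM against 515, 730.4 and 695 CPM (0.07, SE 0.24). The sign of S100A10 and S100A4 turned positive with library size as the scaling, at 0.032 and 0.057 with the block. The median shift of all genes there, from the TMM-scaled fit on stiffness alone, was 0.15.

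Counted over the list, 2 members were higher on stiff gels in all 3 pairs and 3 were lower in all 3, where 14.6% and 15.2% of all tested genes did so. The stiffness groups overlapped for all 10, so 0 members were separate, against 6.87% of tested genes. The median blocked log2 fold change of the 10 was -0.19, with 3 above 0 and 7 below, against a median of -0.01 over all tested genes. By pair, 8, 4 and 5 of the 10 were lower on stiff gels in pairs 1, 2 and 3, where 48.6%, 52.0% and 51.6% of tested genes were lower.

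**Figure D3:**
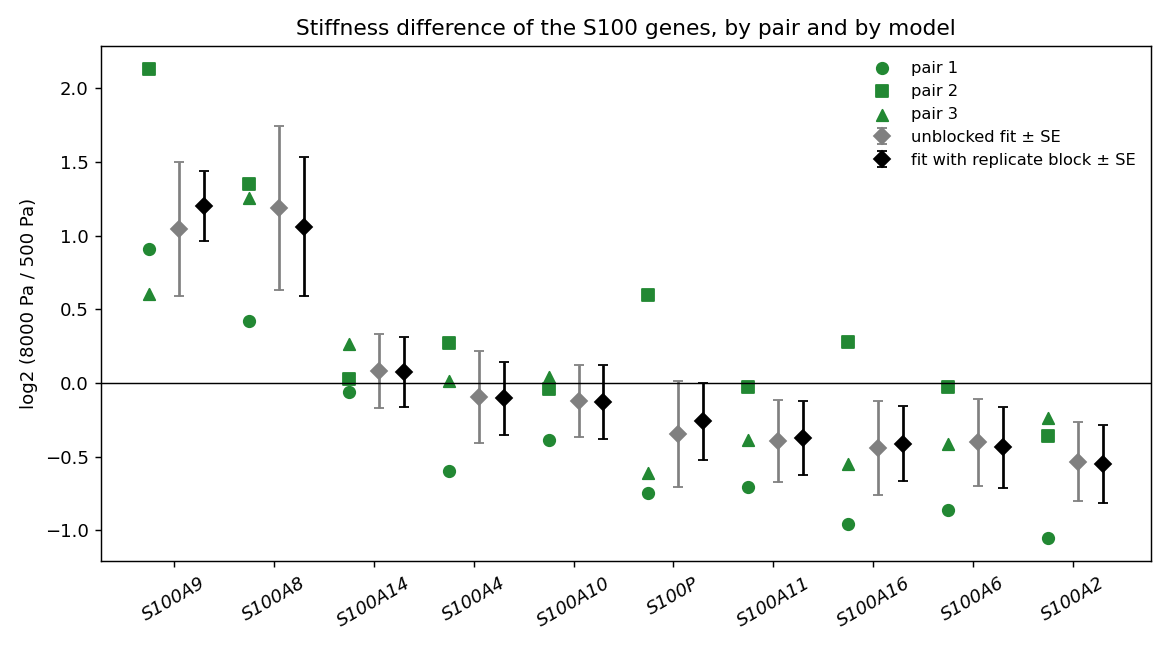
Log2 difference between 8000 Pa and 500 Pa for each S100 gene: green symbols give the 3 same-numbered pairs, grey diamonds the fit on stiffness alone and black diamonds the fit with the replicate block, with bars of 1 SE. S100A9 at 1.20 and S100A8 at 1.06 stand above 0 in every pair, and pair 1 holds the lowest of the 3 values for 9 of the 10 genes.

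In 8000 Pa replicate 1 all 10 members were at their lowest of the 3 stiff libraries, as were 45.9% of tested genes, and 7 of the 10 were at their lowest of all 6 (33.3% of tested genes). In 500 Pa replicate 2, of pair 2, 8 of the 10 were at their lowest of the 3 soft libraries (31.8% of tested genes). S100A8, S100A9 and S100P were at their lowest of all 6 there (7.38% of tested genes). The log2 differences of pair 1 followed transcript GC content across 11003 genes with a Spearman rho of -0.61, against 0.06 and 0.02 in pairs 2 and 3. The members' longest transcripts held 52.8% to 60.2% GC, above the median of 47.9% for tested genes. With GC offsets and the block, S100A6 moved from -0.44 to -0.19, S100A16 from -0.41 to -0.27, S100A10 from -0.13 to 0.0042 and S100A2 from -0.55 to -0.48. S100A9 moved to 1.32 and still passed (adjusted p = 0.00124 by edgeR), where 0.651% of genes did. The part of GC content and of these libraries in the members' differences was not tested further. Without replicate 1 the blocked values were -0.28 for S100A2, -0.20 for S100A6, -0.19 for S100A11 and -0.12 for S100A16. Without replicate 2 they were -0.64, -0.64, -0.55 and -0.75 in the same order, and without replicate 3 they were -0.66, -0.40, -0.31 and -0.29. The 4 genes stayed below 0 and did not pass in any of the 3 (lowest edgeR adjusted p 0.339).

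**Figure D4:**
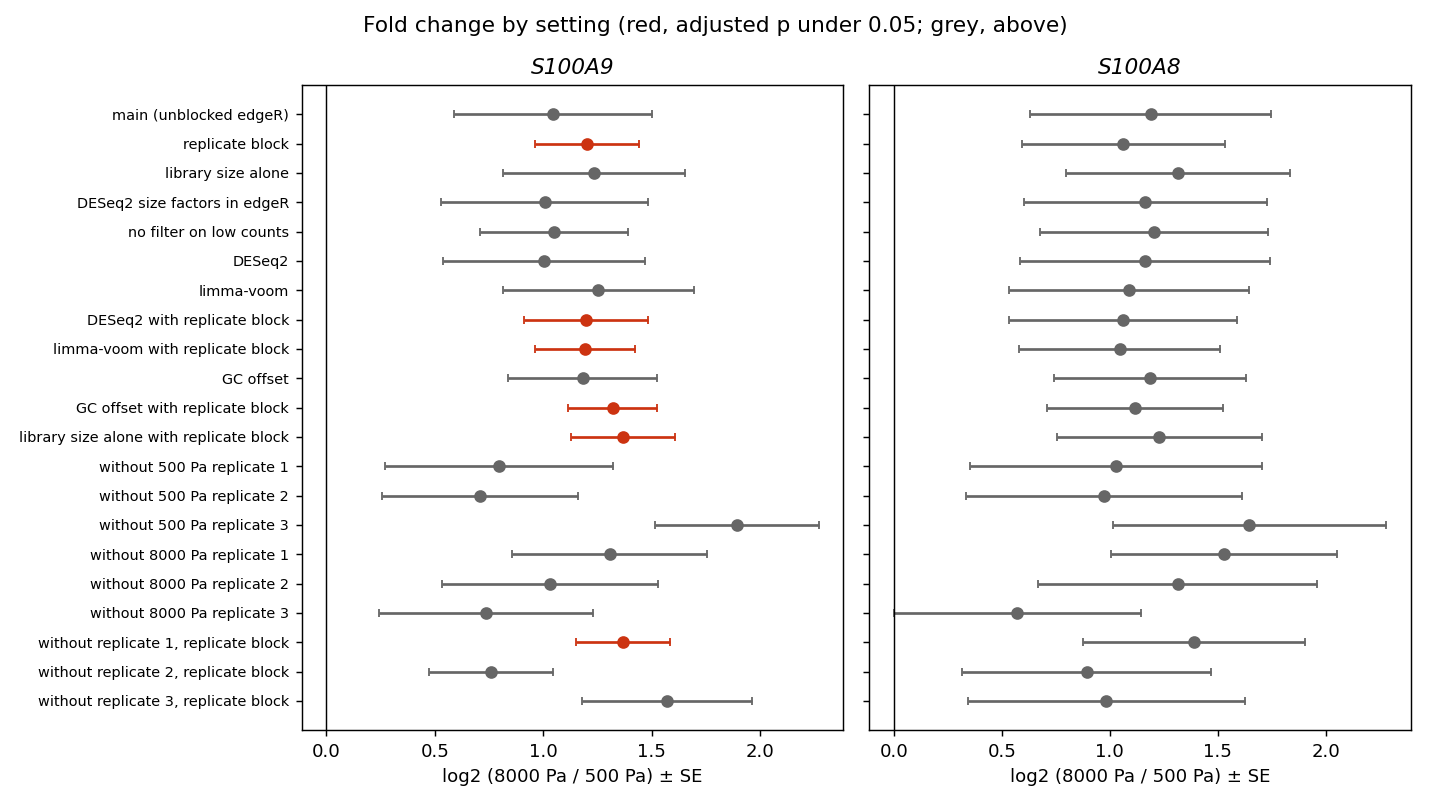
Log2 fold change of S100A9 and S100A8 with 1 SE under the main test and the 20 other settings, red where the adjusted p was under 0.05. S100A9 passed in 6 settings, all of them with the replicate block, and ranged from 0.71 to 1.89, while S100A8 passed in 0 and ranged from 0.57 to 1.65.

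Differences between replicate numbers were tested in the same blocked fit, so these p-values also rest on the spread trend shared by all genes. S100A9 was again the 1 member of 10 to pass (adjusted p = 0.000133 by edgeR), where 14.7% of tested genes did. Averaged over both gels it stood at 61.5 CPM in replicate 1, 82.9 in replicate 2 and 151 in replicate 3. With GC offsets it still passed (adjusted p = 0.0396 by edgeR). S100P came next with 1957, 1721 and 3271 CPM (edgeR adjusted p = 0.0550, not passing), followed by S100A4 with 906, 835 and 1414 CPM (adjusted p = 0.0934 by edgeR). Replicate 3 held the highest value for both genes, while S100A10 and S100A14 were highest in replicate 2 at 1540.0 and 724 CPM.

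Over the 6 libraries the members fell into patterns that are described here without a test, since the points share library scaling. S100A16 followed S100P (Pearson r 0.97 of log2 CPM), S100A11 (0.95), S100A4 (0.91) and S100A6 (0.88). S100A8 and S100A9 followed each other at 0.94 and S100A2 at -0.09 and -0.22. S100A10 and S100A14 were linked at 0.68, and S100A10 stood at -0.01 with both S100A4 and S100A11. Among tested genes with at least 5 CPM on average, those most like S100A9 were NUDT16 (r 0.98), NPAS2 (0.98) and ALPPL2 (0.97). Those most like S100A8 were IVD (r 0.99), NOD1 (0.99) and STAT3 (0.99). These are the highest of 8703 and 8704 coefficients, each over 6 libraries.

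The other 11 S100 genes listed were low or at 0 apart from S100A13, a member involved in release of growth factors, at 226 ± 63.9 CPM at 500 Pa and 185 ± 57.6 at 8000 Pa (n = 3 each). S100A7 (psoriasin) had 3.57 ± 3.22 against 5.43 ± 2.41 CPM, S100A3 had 3.65 ± 1.16 against 2.81 ± 0.742, S100B had 2.14 ± 0.365 against 2.38 ± 1.83 and S100A5 had 1.29 ± 0.799 against 0.831 ± 0.211. None of these 5 tested genes passed (0 of 5), with 1 blocked fold change above 0 and a median of -0.29. S100A1, with 4 to 20 counts per library, was not tested. S100A12, S100A7A, S100A7L2, S100G and S100Z had 0 counts in every library. The upper limit for a count of 0, 3 counts, equals 0.168 to 0.429 TMM-scaled CPM by library.

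Genes that work with the S100 proteins showed 1 call in 4 lists. Of 16 tested binding partners and receptors 0 passed, with 8 above and 8 below 0 and a median of 0.00. The calprotectin receptor TLR4 had 2.78 ± 2.16 CPM at 500 Pa and 4.36 ± 3.23 at 8000 Pa, and AGER, which encodes the receptor RAGE, had 0 counts. BSG, a membrane glycoprotein that also binds S100A9, had 1436 ± 266 against 989 ± 333 CPM (blocked log2 fold change -0.58, adjusted p = 0.350 by edgeR). Of 7 plasminogen activation genes, a pathway that S100A10 with annexin A2 is known to promote, 0 passed, with a median of 0.25. PLAT, a plasminogen activator, had 126 ± 48.8 against 171 ± 62.6 CPM, and ENO1, a plasminogen-binding glycolytic enzyme, had 8706 ± 1894 against 6592 ± 1749.

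Of 14 tested regulators of S100 genes, 1 passed as higher in the blocked fit, as did 0.26% of all tested genes. In this list 0 fell and the median was 0.23. GRHL3, a grainyhead transcription factor of epithelial barriers, was at 3.13, 7.27 and 6.57 CPM at 500 Pa and at 11.5, 16.3 and 14.4 CPM at 8000 Pa. The groups did not overlap, as for 6.87% of tested genes. With the block the gene rose by 1.39 on the log2 scale (SE 0.33, edgeR adjusted p = 0.0107). Without the block the edgeR adjusted p was 1.00, and with the block but without replicate 1, 2 or 3 it was 0.115, 0.0751 and 0.181. The calmodulin relatives and other EF-hand genes, 26 in all, had 0 calls and a median of 0.03. CALML5, a keratinocyte calmodulin, had 34.8 ± 12.7 against 68.5 ± 60.3 CPM, with 137 CPM in 8000 Pa replicate 3, and CAPNS1, the small calpain subunit, had 168 ± 69.0 against 108 ± 36.7.

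Some squamous differentiation genes lie in the same region of chromosome 1, and stratified epithelia express them together with S100A8 and S100A9. Of 14 tested members 0 passed, with 5 above 0, 9 below and a median of -0.19. Medians by pair were -0.53, 1.09 and -0.96, above 0 in pair 2, in which S100A9 also differed most. KRT16, a stress keratin, had 207 ± 103 against 113 ± 33.6 CPM, and SERPINB3 had 1.11 ± 1.88 against 1.73 ± 0.702. The cornified envelope genes LOR and FLG had 0 counts. Of 43 tested genes that start within 1000000 bases of the chromosome 1 members, 0 passed, with 14 above 0, 29 below and a median of -0.11. The 2 of smallest p were BNIPL, at 0.350 ± 0.358 against 1.33 ± 0.244 CPM, and SNX27, a sorting nexin, at 36.5 ± 12.6 against 55.0 ± 9.93.

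Epithelial markers were all detected, 8 of 8, with KRT8 at 11249 ± 3609 CPM at 500 Pa and 9061 ± 3224 at 8000 Pa and EPCAM at 220.3 ± 85.8 and 252 ± 88.9. Of the 8, 0 passed, 2 were above 0 and 6 below, with a blocked median of -0.33 and medians by pair of -0.92, -0.01 and -0.01. KRT17 was at -0.83 and KRT5 at -0.62, while the 2 above 0 were CDH1 at 0.46 and EPCAM at 0.21. CDH1 had 300 ± 67.5 against 407 ± 19.2 CPM, and its groups did not overlap, as for 6.87% of tested genes. The list summed to 14048 to 26334 CPM at 500 Pa and 10904 to 21148 at 8000 Pa. In pair 1 the 6 keratins were lower on stiff gels, as the lower S100 members were. EPCAM and CDH1 were higher there, by 0.69 and 0.68 on the log2 scale. The part of these markers in the S100 results was not tested. Since S100A8 and S100A9 also mark myeloid cells, leukocyte genes are given beside them. PTPRC, SPI1 and TYROBP had 0 counts in every library, ITGAM, CSF3R and FCER1G stayed below 1 CPM, and the 4 tested markers (CD14, LYZ, CD68 and FPR1) had 0 calls. The list of 10 summed to 25.9 to 55.3 CPM at 500 Pa and 28.7 to 49.2 at 8000 Pa. CD14 was at 7.32, 8.05 and 11.6 CPM at 500 Pa and 7.59, 13.1 and 20.2 at 8000 Pa, so its 3 highest libraries were those of S100A9, and its part in the result was not tested. Fibroblast markers were at 0 (COL1A2, COL3A1 and LUM) or low, and their list of 7 summed to 1.23 to 1.86 CPM at 500 Pa and 1.79 to 4.65 at 8000 Pa. Of 5 endothelial markers, CDH5 and PECAM1 passed as higher in the blocked fit, as did 0.26% of all tested genes. They rose by 1.99 and 1.01 on the log2 scale (adjusted p = 0.000314 and 0.00537 by edgeR, 0.181 and 0.812 without replicate 3). Neither passed in the main edgeR fit on stiffness alone. VWF and KDR stayed below 1 CPM and TEK was at 0. That list summed to 92.7 to 149 CPM at 500 Pa and 208 to 252 at 8000 Pa, and its part in the S100 results was not tested.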

How the data were processed

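RNA sequencing of 6 libraries was analysed. Per the submitters' processing notes, HISAT2 2.1.2, HTSeq 0.11.4, limma and DESeq2 were used with GRCh38. Strand setting, annotation and treatment of multiply mapping reads were not given in the sources used here. Per the file headers, the authors deposited raw counts and TMM log2 values per gene symbol. The deposited log2 values were present for 9 members. Over 7257 genes with at least 50 counts in each library, they differed from those computed here by a constant per library. That constant was -0.042 to 0.086, and beyond it the difference was at most 0.013. Library totals were 8305601 to 18779742 counts, and no libraries of a group agreed within sampling noise (chi-square per degree of freedom 28.0 or more).

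Counts were filtered with filterByExpr (minimum count 10, total 15), scaled by TMM and tested with edgeR 4.0.16 in R 4.3.3 by the quasi-likelihood F test, Benjamini-Hochberg adjusted over 11517 genes at 0.05. The standard error is the fold change divided by the square root of F. The main design had stiffness alone, and a fit with the replicate number as a block was the alternative. Same-numbered libraries deviated together (r 0.409, 0.184 and 0.516, each above 0.1), so the labels' numbers were taken as pairs. Of the 6 differently numbered combinations, 500 Pa replicate 2 with 8000 Pa replicate 1 reached r 0.199, above that of pair 2, and the other 5 were at 0.049 or lower. The blocked fit has 2 residual degrees of freedom and an infinite prior, so all genes share 1 spread trend. Pair differences are of log2 CPM with a prior count of 2. DESeq2 1.42.0, limma-voom (limma 3.58.1), GC offsets (lowess span 0.3, 95.5% of tested genes matched in GENCODE 29), other scalings, no filter and left-out libraries were also run. Steps were run on simulated counts in which all genes shared the spread trend, so that run cannot judge calls of genes with a spread of their own.

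Members and lists were chosen with earlier results of these data known. All 10 members are named, with any counted S100 gene, up to 3 passing genes per list (otherwise up to 2 of smallest p) and the 3 most correlated genes for S100A8 and S100A9; others named were chosen after their values were seen. For 1 gene of the partner and regulator lists, values are not reported here. GENCODE 29 lists 2 pseudogenes named for S100A11, so its counts are uncertain, and an opposite-strand gene sharing 23 exon bases with S100A6. The RefSeq promoter table held all 10 members; protein sequences were not used here.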

Additional observations from a re-analysis of the deposited data

How the results depend on the processing

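Over 20 alternative settings S100A2, S100A6, S100A8, S100A9, S100A11 and S100A16 kept their direction, and 12 of 200 recomputed values turned sign, all of members that did not pass. With library size alone S100A4 was at 0.061 and S100A10 at 0.020. With the block added (chosen after seeing the data) they were at 0.057 and 0.032. The median shift of all genes from the main fit was 0.16 without and 0.15 with the block. S100A10 was at 0.0042 with GC offsets and the block. Leaving out libraries, S100A4 ranged from -0.40 to 0.19, S100A10 from -0.23 to 0.019, S100A14 from -0.016 to 0.22 and S100P from -0.65 to 0.14 without the block and -0.68 to 0.012 with it; the cause was not tested. S100A4 was positive without 500 Pa replicate 3 (0.19), 8000 Pa replicate 1 (0.10) or, blocked, replicate 1 (0.16), as S100A10 was without replicate 1 (0.019). S100P was positive without 500 Pa replicate 3 (0.14) or, blocked, replicate 1 (0.012), and S100A14 was negative without 8000 Pa replicate 2 (-0.016).

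Against 0 genes in the unblocked edgeR test, the replicate block gave 61, DESeq2 7, no filter 8, blocked DESeq2 42, blocked limma-voom 89, blocked GC offsets 75 and blocked library size 41, and leaving out libraries gave 0 to 81 (0 to 1 unblocked; 38, 81 and 12 blocked without replicates 1, 2 and 3). The members past the threshold numbered 1 under each of these blocked fits (S100A9), 0 in the other unblocked fits and 0 to 1 with libraries left out. Genes differing between replicate numbers fell from 1691 to 586 with GC offsets, and 1 member was called in both. By longest transcript, levels per kb were 4732 for S100A2, 1393 for S100A4, 13145 for S100A6, 1149 for S100A10 and 1422 for S100A16, and S100A4 and S100A16 changed places. GRHL3, CDH5 and PECAM1, rerun after seeing the data, kept their direction in every setting. For S100A8, counts of 12 to 78 per library limit precision.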
